A study of Mus musculus with 12 samples.

Results

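The 10 genes described here encode the precursors of hypothalamic neuropeptides, namely Avp, Oxt, Crh, Trh, Pomc, Agrp, Cartpt, Pmch, Hcrt and Gal. They were taken by their mouse symbols from the 38924 genes of each deposited table, and all 10 were found by Ensembl identifier. Of the 16493 genes that passed a filter on low counts, 9 were among these 10, and Agrp was not. The values are expected counts, which are estimated numbers of read pairs per gene, shown as CPM, the count scaled to the library total.

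Polyadenylated RNA of whole brains was sequenced from mice 6 weeks old, with 3 mice and so 3 libraries per genotype. The genotypes were Rorbh1/h1, Rorbh2/h2 and Rorbh4/h4, called h1, h2 and h4 here, and wild type (WT). Rorb codes for a nuclear receptor of the ROR family with no agreed natural ligand, and the question is what each allele does to the transcripts of the brain. The background was C57BL/6J for h1, B6(Cg)-Tyrc-2J/J for h2, B6.129S7-Il1r1tm1Imx/J for h4 and C57BL/6J for WT. Background and allele cannot be told apart for h2 and h4, and the background strain of h4 carries a targeted allele of Il1r1, whose measured level is given with the checks of the libraries. Each comparison with WT uses the same 3 WT libraries.

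Hypothalamic neuropeptides are cut from larger precursors, packed into dense core granules and released either into the blood or onto other neurons. Magnocellular neurons of the paraventricular and supraoptic nuclei make vasopressin and oxytocin, and parvocellular neurons make the releasing hormones that act on the anterior pituitary. Neurons of the arcuate nucleus and the lateral hypothalamus use the other peptides to control feeding, energy use and wakefulness. In a whole brain these neurons are few, and several of the genes, such as Cartpt, Crh and Gal, are also active in other brain regions. In bulk RNA, fewer cells of a type and less RNA per cell cannot be told apart.

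Promoter sequence was examined because Rorb is a DNA-binding receptor. Receptors of the ROR family bind the core AGGTCA preceded by a stretch rich in A and T. Sequences of the 250 bases before the start of the gene were found for 8 of the 10 genes, in RefSeq on GRCm38.p6. The letters AGGTCA, read on both strands, were present in 3 of these 8 windows, those of Oxt, Trh and Pomc. The share among all 32851 such windows was 14.0%. With the bases AANT before it, AGGTCA was in 0 of the 8 windows and in 0.177% of all windows. The cyclic AMP response element TGACGTCA, which shares no position with these matches, was found in the Cartpt window and in 1.55% of all windows. The Cartpt window, chr13:99900684-99900933, comes before the RefSeq start but lies inside the gene span given below, which is from GENCODE M21. A match to these letters is a description of the sequence. The 3 windows with AGGTCA are shown with that of Avp, the neighbour of Oxt that has no match. Each runs 5′ to 3′ on the strand of its gene, and capitals mark AGGTCA or its reverse complement.
Oxt, chr2:130575919-130576168, plus strand: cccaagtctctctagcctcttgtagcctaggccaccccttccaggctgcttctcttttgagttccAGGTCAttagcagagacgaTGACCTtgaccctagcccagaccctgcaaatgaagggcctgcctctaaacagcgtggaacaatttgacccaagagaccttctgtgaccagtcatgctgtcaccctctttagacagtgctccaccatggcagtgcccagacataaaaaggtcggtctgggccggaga
Avp, chr2:130582589-130582838, minus strand: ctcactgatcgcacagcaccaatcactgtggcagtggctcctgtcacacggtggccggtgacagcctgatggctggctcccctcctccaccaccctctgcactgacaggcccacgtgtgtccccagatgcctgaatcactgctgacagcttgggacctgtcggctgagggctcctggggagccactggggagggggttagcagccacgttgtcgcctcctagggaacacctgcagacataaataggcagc
Trh, chr6:92244651-92244900, minus strand: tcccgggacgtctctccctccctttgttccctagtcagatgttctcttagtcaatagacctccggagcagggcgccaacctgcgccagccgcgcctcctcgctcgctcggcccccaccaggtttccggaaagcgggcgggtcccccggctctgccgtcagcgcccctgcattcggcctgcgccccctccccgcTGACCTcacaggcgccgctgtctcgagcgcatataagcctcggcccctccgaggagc
Pomc, chr12:3954695-3954944, plus strand: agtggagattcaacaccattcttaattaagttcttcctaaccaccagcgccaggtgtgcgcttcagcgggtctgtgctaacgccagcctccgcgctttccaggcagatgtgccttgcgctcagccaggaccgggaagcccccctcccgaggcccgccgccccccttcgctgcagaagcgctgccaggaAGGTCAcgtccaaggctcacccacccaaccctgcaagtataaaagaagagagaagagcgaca

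In the Oxt window the matches began 185 and 166 bases before the start, on opposite strands. The Trh match began 57 bases and the Pomc match 62 bases before the start.

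No gene of the 10 was called in any comparison at an adjusted p under 0.05, which is the Benjamini-Hochberg value over all genes tested by edgeR's quasi-likelihood fit. This gave 0 calls in 63 tests, that is 9 genes in 7 comparisons. DESeq2 also gave 0, although 38 of its 63 adjusted p were missing, and limma on deposited TPM (a level per length of transcript, scaled within each library) gave 0. Over all genes the share called was 0.625% in h1 against WT, 0.679% in h2 against WT and 4.55% in h4 against WT. For the mean of the 3 mutants against WT it was 1.1%. Between mutants the share was 0.722% for h2 against h1, 4.64% for h4 against h1 and 3.22% for h4 against h2. The count of 0 is to be read beside these low shares, and a p above the threshold does not show that levels were alike.

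Over the 9 genes the median log2 difference from WT was 0.04 for h1, -0.17 for h2 and -0.09 for h4. Over all genes tested the medians were 0.00, 0.00 and 0.01. At an unadjusted p under 0.05, Pomc passed in h1 against WT, where 9.82% of all genes did. Crh and Pomc passed in h2 against WT, where 11.5% of all genes did. Crh, Hcrt and Gal passed in h4 against WT, where 17.6% of all genes did. Between mutants, none passed for h2 against h1 (9.49% of all genes), Hcrt passed for h4 against h1 (19.1%) and Gal passed for h4 against h2 (16.8%). For the mean of the mutants against WT, Pomc passed, as did 12.5% of all genes.

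Groups that did not overlap were as few. In h1 against WT, 0 genes lay higher in all 3 mutant libraries (6.21% of all genes) and 1 lower (Pmch, 8.72%). In h2 against WT, 1 lay higher (Pomc, 7.66%) and 1 lower (Crh, 7.53%), and in h4 against WT, 1 higher (Gal, 12.1%) and 1 lower (Hcrt, 9.17%). For h2 against h1 these numbers were 0 (9.06%) and 1 (Crh, 6.49%), for h4 against h1 0 (14.8%) and 2 (Cartpt and Hcrt, 9.42%), and for h4 against h2 0 (12.1%) and 0 (9.6%). For all 9 mutant libraries against WT they were 0 (0.952%) and 0 (0.879%).

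**Figure D1:**
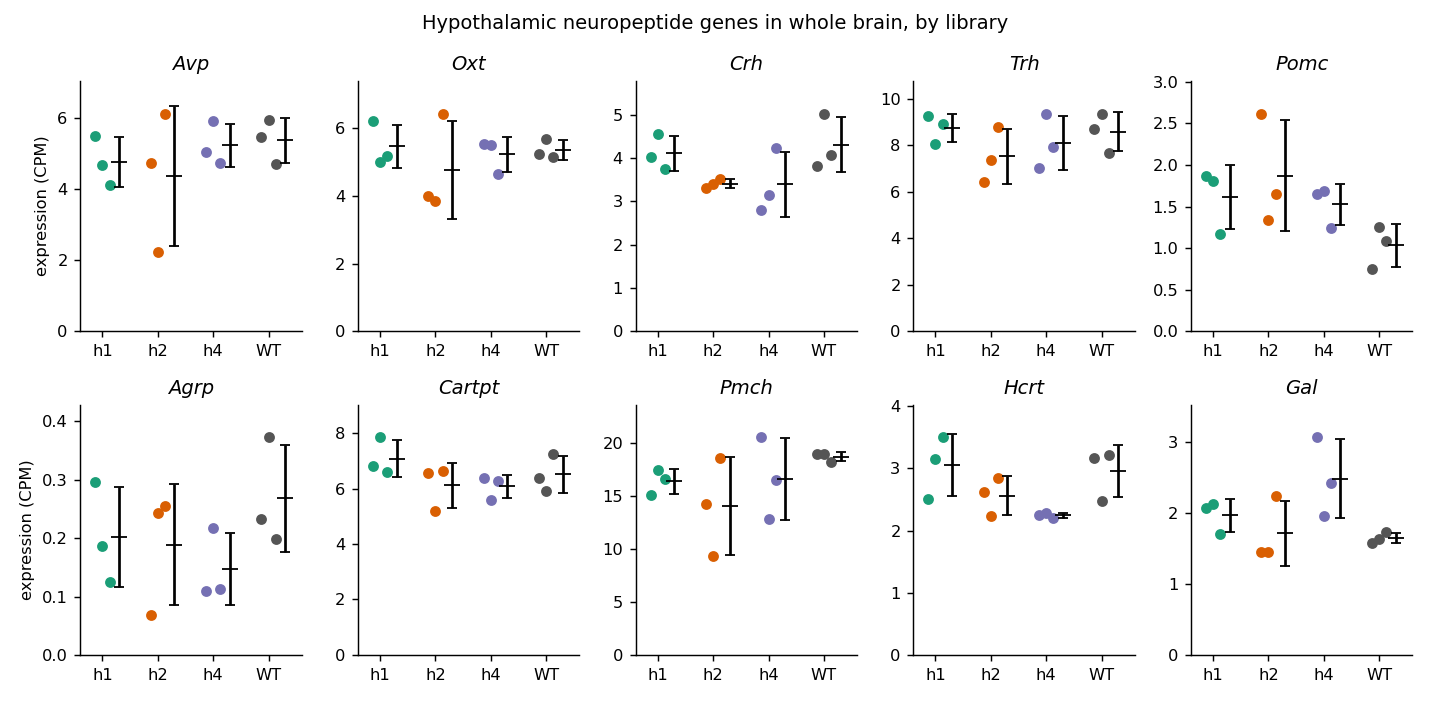
Expression of the 10 peptide genes in CPM, 1 panel per gene with its own vertical axis from 0, for h1, h2, h4 and WT brains. Coloured points are libraries, and the black bar beside them is the mean with 1 SD (n = 3). Avp and Pmch spread widely in h2, and the 3 h4 libraries lie above the WT libraries for Gal and below them for Hcrt.

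Per base of transcript, Pmch was the most abundant of the 10 and Agrp the least. Averaged over the 12 libraries, the deposited TPM was 57.2 ± 11.2 for Pmch, 29.8 ± 4.48 for Oxt, 25.2 ± 5.38 for Avp and 18.2 ± 2.0 for Cartpt (SD, n = 12). It was 13.5 ± 2.32 for Hcrt, 13.1 ± 1.64 for Trh, 7.29 ± 1.75 for Gal and 6.42 ± 1.11 for Crh. Pomc averaged 3.54 ± 1.10 TPM and Agrp 0.843 ± 0.370 TPM. In this order the upper gene was above the next in 11 or 12 of 12 libraries for all but 2 neighbours. Hcrt was above Trh in 6 of 12 libraries and Gal above Crh in 7 of 12, so these neighbours were not separated beyond their spread.

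Avp encodes the precursor of vasopressin, the antidiuretic hormone, and Oxt that of oxytocin, which acts in birth, lactation and social behaviour. In GRCm38, Oxt (ENSMUSG00000027301) lies on chromosome 2 at 130576173 to 130577054 on the plus strand. Avp (ENSMUSG00000037727) lies at 130580620 to 130582554 on the minus strand, so that the ends of the genes face each other 3.57 kb apart. Both precursors carry a neurophysin, the carrier protein of the hormone, and the transcripts share a stretch of identical sequence. This run of 127 bases lies within the coding sequence, with 2 bases at the end of exon 1 and 125 bases in exon 2 of each gene (chr2:130581133-130581257 for the exon 2 part in Avp and chr2:130576591-130576715 in Oxt). It is shown because read pairs wholly within it cannot be assigned to either gene by sequence alone.
Run shared by Avp and Oxt: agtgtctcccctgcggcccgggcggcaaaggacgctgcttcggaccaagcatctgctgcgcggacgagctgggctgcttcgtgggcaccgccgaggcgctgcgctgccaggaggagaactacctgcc

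Of all 100-base windows, the length of a read, 28 of 478 in the Avp transcript and 28 of 438 in the Oxt transcript were shared. The expected counts of Avp and of Oxt were not whole in 1 of 12 libraries, so few read pairs were divided between genes.

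Avp measured 5.51, 4.69 and 4.12 CPM in h1 brains, 4.75, 2.23 and 6.13 CPM in h2 brains, 5.05, 5.93 and 4.75 CPM in h4 brains, and 5.46, 5.96 and 4.71 CPM in WT brains. The lowest and the highest of the 12 values were both in h2, in replicates 2 and 3, and every mutant group overlapped WT. Relative to WT, the log2 difference of Avp was -0.17 for h1 (SE 0.29, edgeR adjusted p = 0.904), -0.32 for h2 (SE 0.29, adjusted p = 0.756) and -0.05 for h4 (SE 0.29, adjusted p = 0.962). With 2 SE on each side, the h2 data allow a level between 0.532 and 1.2 times that of WT. The h2 value turns on single libraries, being 0.03 without h2 replicate 2 and -0.72 without h2 replicate 3.

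Oxt measured 6.20, 5.01 and 5.17 CPM in h1 brains, 4.00, 3.85 and 6.43 CPM in h2 brains, 5.54, 5.49 and 4.64 CPM in h4 brains, and 5.23, 5.68 and 5.16 CPM in WT brains. In h2, replicates 1 and 2 lay below every WT library and replicate 3 above them all. On the log2 scale, values of Oxt relative to WT were 0.03 for h1, -0.15 for h2 and -0.04 for h4 (SE 0.15 to 0.16). The edgeR adjusted p were 0.973, 0.786 and 0.928. The interval of 2 SE was 0.829 to 1.26 times WT for h1, 0.725 to 1.12 times for h2 and 0.780 to 1.21 times for h4. Without h2 replicate 2 the log2 difference for h2 was 0.00, and without h2 replicate 3 it was -0.45.

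Avp and Oxt varied together across the 12 libraries, with Pearson r = 0.758 (permutation p = 0.00169, adjusted p = 0.0101 over 6 pairs of genes) and Spearman rho = 0.825 (permutation p = 0.00141, adjusted p = 0.00846). Of the deviations from genotype means, r was 0.746 (permutation p = 0.00962, adjusted p = 0.0577) and rho 0.538 (permutation p = 0.0755, adjusted p = 0.453). Leaving out single h2 libraries moved r in both directions. It was 0.872 without h2 replicate 1 (permutation p = 0.00105, adjusted p = 0.00630). Without h2 replicate 3 it was 0.734 (permutation p = 0.00631, adjusted p = 0.0379). Leaving out libraries far from the median narrows the range of Avp, which can itself lower r. Without the 2 libraries farthest from the median of Avp, which are h2 replicates 2 and 3, r was 0.527 (permutation p = 0.115, adjusted p = 0.690) and rho 0.697 (permutation p = 0.0308, adjusted p = 0.185). Without h2 replicate 2 alone, r was 0.636 (permutation p = 0.0326, adjusted p = 0.195) and rho 0.773 (permutation p = 0.00739, adjusted p = 0.0443), so that only rho passed. Among the other 5 pairs, which were Crh with Avp, Trh with Crh, Pomc with Cartpt, Pomc with Agrp and Pmch with Hcrt, r lay between -0.288 and 0.433 and none passed, with adjusted p of at least 0.383. Pairs outside these 6 were not tested, and several were nearly as high as Avp with Oxt. Of all 36 pairs of the 9 tested genes, r was over 0.6 in 6. Beside Avp with Oxt these were Trh with Oxt (0.699), Pmch with Avp (0.696), Hcrt with Cartpt (0.661), Pmch with Cartpt (0.611) and Pmch with Oxt (0.606).

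**Figure D2:**
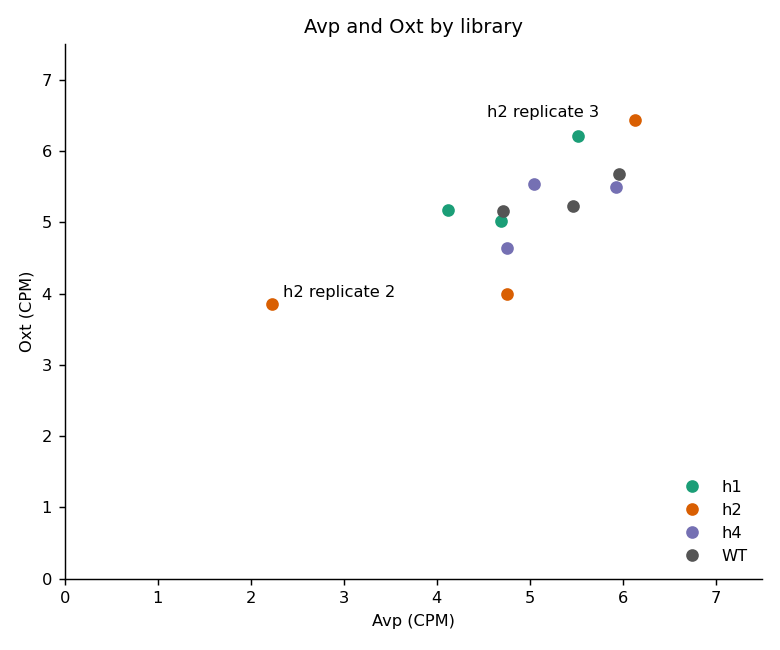
Oxt against Avp in CPM, 1 point per library, coloured by genotype in the order h1, h2, h4 and WT. The points lie along a rising line, with h2 replicate 2 at the lower left (2.23 and 3.85 CPM) and h2 replicate 3 at the upper right (6.13 and 6.43 CPM).

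Crh encodes corticotropin releasing hormone, which starts the hormonal response to stress and is also made by interneurons of the cortex. The gene (ENSMUSG00000049796) lies on chromosome 3 at 19693401 to 19695396. Crh measured 4.04, 4.55 and 3.75 CPM in h1 brains, 3.31, 3.40 and 3.52 CPM in h2 brains, 2.80, 3.15 and 4.25 CPM in h4 brains, and 3.83, 5.03 and 4.07 CPM in WT brains. All 3 h2 libraries lay below all 3 WT libraries, while h1 and h4 overlapped WT. In h2 against WT, 7.53% of all genes tested were separated in this direction. The log2 fold change over WT was -0.33 in h2 (SE 0.15, edgeR adjusted p = 0.396) and -0.35 in h4 (SE 0.16, adjusted p = 0.222). In h1 it was -0.06 (SE 0.15, adjusted p = 0.941). The intervals were 0.642 to 0.980 times WT in h2, 0.630 to 0.972 in h4 and 0.782 to 1.18 in h1.
WT replicate 2 held the highest Crh value, and without it the log2 fold change was -0.21 in h2 and -0.23 in h4. Without h4 replicate 3, the highest of its group, the value in h4 was -0.54 (adjusted p = 0.0906). Crh was also lower in every h2 library than in every h1 library, as were 6.49% of all genes tested.

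Trh encodes thyrotropin releasing hormone, which drives the pituitary to thyroid axis. The gene (ENSMUSG00000005892) lies on chromosome 6 at 92242061 to 92244650. Trh measured 9.26, 8.08 and 8.92 CPM in h1 brains, 6.41, 7.37 and 8.79 CPM in h2 brains, 7.02, 9.35 and 7.92 CPM in h4 brains, and 8.68, 9.36 and 7.69 CPM in WT brains. Every mutant group overlapped WT, and the lowest value was in h2 replicate 1, the library with the fewest counts. Against WT, the log2 difference of Trh was 0.04 for h1, -0.17 for h2 and -0.09 for h4 (SE 0.12 each). The edgeR adjusted p were 0.954, 0.624 and 0.758. The intervals of Trh, 0.874 to 1.21 times WT for h1, 0.751 to 1.04 times for h2 and 0.795 to 1.11 times for h4, include 1 in each case. Single libraries moved these values, in h2 to between -0.30 (without h2 replicate 3) and -0.093 (without h2 replicate 1), and in h4 to between -0.22 (without h4 replicate 2) and -0.0043 (without h4 replicate 1).

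Pomc encodes proopiomelanocortin, the precursor of corticotropin, of the satiety signal alpha-melanocyte stimulating hormone and of beta-endorphin. The gene (ENSMUSG00000020660) lies on chromosome 12 at 3954951 to 3960642. Pomc measured 1.87, 1.81 and 1.17 CPM in h1 brains, 2.62, 1.34 and 1.66 CPM in h2 brains, 1.65, 1.69 and 1.25 CPM in h4 brains, and 0.747, 1.26 and 1.09 CPM in WT brains. These values rest on 16 to 39 counts per library. In 7 of 9 mutant libraries Pomc was above every WT library, and only the h2 group did not overlap WT. In h2 against WT, 7.66% of all genes tested were separated in this direction.

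Pomc had the largest log2 fold changes of the 9 genes in h1 and h2 over WT, and none passed the test. They were 0.64 in h1 (SE 0.27, edgeR adjusted p = 0.419), 0.79 in h2 (SE 0.27, adjusted p = 0.215) and 0.56 in h4 (SE 0.29, adjusted p = 0.314). For the mean of the mutants it was 0.66 (SE 0.23, adjusted p = 0.192), with an interval of 1.15 to 2.18 times WT. With Xist as a covariate, which marks the sex that the labels do not give, that value was 0.57 (SE 0.27, adjusted p = 0.502). Without WT replicate 1, the lowest of the 12 libraries, it was 0.48 (adjusted p = 0.658). In h2 the log2 fold change was 0.53 without h2 replicate 1, the highest library (adjusted p = 0.672).

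Corticotrophs and melanotrophs of the pituitary make far more Pomc than the brain, so a list of 12 measured anterior and intermediate pituitary genes was examined beside it. The summed level of the list was 2.71 to 2.90 CPM in h1, 2.41 to 4.54 CPM in h2, 2.47 to 2.66 CPM in h4 and 2.88 to 2.99 CPM in WT. Gh, the growth hormone gene and an abundant transcript of the pituitary, had 27 counts (1.15 CPM) in h2 replicate 3, 1 count in h1 replicate 2 and 0 in the other 10 libraries. Prl, the prolactin gene, had 2 counts in h2 replicate 3 and 0 elsewhere. Genes at 0 in all 3 libraries of a group were Prl, Fshb, Ghrhr and Gnrhr in h1, Fshb and Gnrhr in h2, Gh, Prl and Gnrhr in h4, and Gh, Prl, Fshb, Ghrhr and Gnrhr in WT. Pomc was at 1.66 CPM in the h2 library with Gh and at 2.62 CPM in h2 replicate 1, in which Gh and Prl were at 0. The part of pituitary tissue in the Pomc values was not tested.

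Agrp encodes the agouti related peptide, which blocks the melanocortin receptors that Pomc products activate. Its annotated span on chromosome 8, 105566698 to 105637393, overlaps 7 other annotated genes, so its few read pairs are uncertain as Agrp reads. Agrp (ENSMUSG00000005705) had 6, 4 and 3 counts in h1 brains, 1, 6 and 6 counts in h2 brains, 2, 4 and 2 counts in h4 brains, and 5, 8 and 4 counts in WT brains. The limit that 3 counts set in a library was 0.121 to 0.207 CPM, and the values of 0.0689 to 0.373 CPM lie about it. With no filter on low counts, the log2 fold change over WT was -0.42 in h1 (SE 0.62, edgeR adjusted p = 0.914), -0.39 in h2 (SE 0.62, adjusted p = 0.914) and -0.86 in h4 (SE 0.68, adjusted p = 0.677). No difference in Agrp was detected with these few counts.

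Cartpt encodes the CART prepropeptide, made with Pomc in arcuate neurons, where it reduces feeding, and in many other neurons. The gene (ENSMUSG00000021647) lies on chromosome 13 at 99898489 to 99901091. Cartpt measured 6.79, 7.84 and 6.58 CPM in h1 brains, 6.55, 5.18 and 6.62 CPM in h2 brains, 6.36, 5.60 and 6.28 CPM in h4 brains, and 6.39, 5.91 and 7.24 CPM in WT brains. Every mutant group overlapped WT, and all 3 h4 libraries lay below all 3 h1 libraries, as did 9.42% of all genes tested. Against WT, the log2 difference of Cartpt was 0.13 for h1, -0.10 for h2 and -0.11 for h4 (SE 0.12 each). The edgeR adjusted p were 0.793, 0.822 and 0.720. With 2 SE on each side, the level lay within 0.929 to 1.29 times WT for h1, 0.788 to 1.10 times for h2 and 0.783 to 1.10 times for h4.

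Pmch encodes the precursor of melanin concentrating hormone, which promotes feeding and is made by neurons of the lateral hypothalamus and zona incerta. The gene (ENSMUSG00000035383) is at 88091072 to 88092375 of chromosome 10, plus strand, inside the span of Parpbp on the minus strand. The kit does not mark the strand, so read pairs of the overlap cannot be told apart by direction. The expected count of Pmch was not whole in 12 of 12 libraries, and Parpbp was at 0.333 to 0.907 CPM.

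Pmch measured 15.2, 17.5 and 16.6 CPM in h1 brains, 14.2, 9.33 and 18.6 CPM in h2 brains, 20.6, 12.8 and 16.6 CPM in h4 brains, and 19.0, 19.0 and 18.3 CPM in WT brains. The 3 WT values lay close together, and all 3 h1 values were below them, as were 8.72% of all genes tested in h1 against WT. The mutant libraries ranged more widely, with 7 of 9 below every WT library and h4 replicate 1 above them all. For Pmch the log2 change relative to WT was -0.18 in h1 (SE 0.23, edgeR adjusted p = 0.871), -0.42 in h2 (SE 0.24, adjusted p = 0.569) and -0.18 in h4 (SE 0.24, adjusted p = 0.767). These values allow 0.638 to 1.22 times WT for h1, 0.535 to 1.04 times for h2 and 0.634 to 1.23 times for h4. Without h2 replicate 2 the value in h2 was -0.18, and without h2 replicate 3 it was -0.71. In h4 it was -0.028 without h4 replicate 2 and -0.37 without h4 replicate 1.

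Hcrt encodes the precursor of the orexins, the peptides of lateral hypothalamic neurons that keep an animal awake and whose loss causes narcolepsy. The gene (ENSMUSG00000045471) lies on chromosome 11 at 100761069 to 100762931. Hcrt measured 2.51, 3.16 and 3.50 CPM in h1 brains, 2.62, 2.23 and 2.84 CPM in h2 brains, 2.25, 2.28 and 2.21 CPM in h4 brains, and 3.17, 2.47 and 3.22 CPM in WT brains. The h4 libraries lay close together and below every WT and every h1 library, while h1 and h2 overlapped WT. Of all genes tested, 9.17% were separated in this direction in h4 against WT and 9.42% in h4 against h1.
The log2 fold change of Hcrt was -0.40 in h4 over WT (SE 0.18, edgeR adjusted p = 0.228) and -0.47 in h4 over h1 (SE 0.18, adjusted p = 0.128). It was 0.07 in h1 over WT (SE 0.16, adjusted p = 0.940) and -0.21 in h2 over WT (SE 0.17, adjusted p = 0.703). In h4 the interval was 0.591 to 0.970 times WT, from 39 to 42 counts per h4 library. The other intervals were 0.835 to 1.32 times WT in h1 and 0.682 to 1.10 in h2.

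Gal encodes galanin, which inhibits many neurons and is made in the hypothalamus, in sleep-promoting neurons of the preoptic area and in the locus coeruleus. The gene (ENSMUSG00000024907) lies on chromosome 19 at 3409915 to 3414544, 15.5 Mb from Rorb on the same chromosome. Gal measured 2.07, 2.14 and 1.71 CPM in h1 brains, 1.45, 1.46 and 2.25 CPM in h2 brains, 3.07, 1.96 and 2.43 CPM in h4 brains, and 1.59, 1.63 and 1.74 CPM in WT brains. All 3 h4 libraries lay above all 3 WT libraries, as did 12.1% of all genes tested in h4 against WT. The h1 and h2 groups overlapped WT.
The log2 fold change of Gal was 0.58 in h4 over WT (SE 0.21, edgeR adjusted p = 0.128) and 0.50 in h4 over h2 (SE 0.21, adjusted p = 0.214). In h1 over WT it was 0.26 (SE 0.21, adjusted p = 0.763) and in h2 over WT 0.08 (SE 0.22, adjusted p = 0.935). The intervals were 1.11 to 2.01 times WT in h4, 0.889 to 1.61 in h1 and 0.777 to 1.43 in h2. Without h4 replicate 1, the highest library, the value in h4 over WT was 0.39 (adjusted p = 0.481), and without h4 replicate 2 it was 0.72 (adjusted p = 0.0716).

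**Figure D3:**
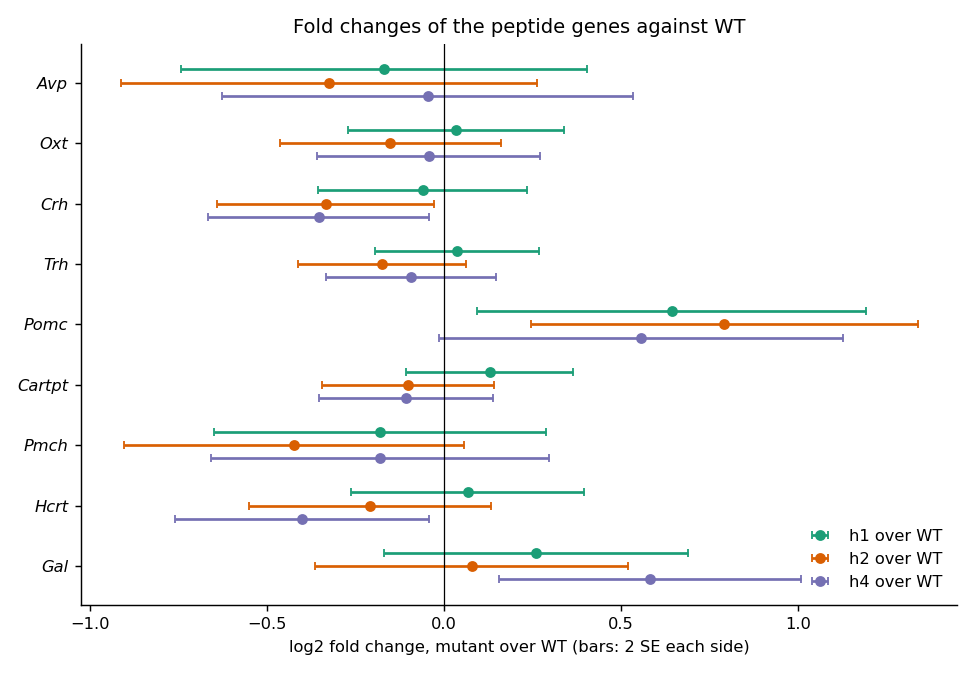
Log2 fold changes of the 9 tested peptide genes in h1, h2 and h4 over WT, with bars of 2 SE on each side and a line at 0. Bars of Pomc in h1 and h2, of Crh in h2 and h4, and of Hcrt and Gal in h4 clear 0, though none of these passed after adjustment over all genes, and bars of Avp and Pmch are wide.

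The genes differed in how far mice of 1 genotype lay apart. The biological coefficient of variation, edgeR's estimate of the fraction by which mice differ after counting error, was 0.231 for Avp, 0.197 for Pmch and 0.147 for Pomc, against 0.0531 in common for all genes. The estimate of each gene is drawn towards that of genes of a like level, so it is not the gene's own spread alone. Avp was above 98.3% of the 1448 genes of a like level, whose median was 0.0759, and Pmch above 99.1% of 2419 such genes, whose median was 0.0577. Oxt, at 0.104, was above 91.7% of genes of its level. Pomc was above 84.4% of genes of its level. The values of Hcrt, Crh, Trh, Cartpt and Gal lay between 0.0748 and 0.109. That of Trh was above 83.5% of genes of its level, and those of Crh, Cartpt, Gal and Hcrt were above 60.5%, 59.6%, 58.1% and 43.7%. The library h2 replicate 2 carries much of the spread of Avp and Pmch. Without it the SE of the log2 fold change in h1 over WT was 0.14 in place of 0.29 for Avp and 0.15 in place of 0.23 for Pmch, beside 0.12 for Trh.

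The spread of Avp and Pmch was not equal among genotypes. The coefficient of variation of Avp in CPM was 14.6% in h1, 45.3% in h2, 11.6% in h4 and 11.7% in WT. For Pmch it was 7.18% in h1, 32.9% in h2, 23.2% in h4 and 2.19% in WT. For Oxt it was 11.9% in h1, 30.5% in h2, 9.68% in h4 and 5.32% in WT. With 3 libraries per genotype these differences in spread were not tested. Counting alone gives about 9.98% for Avp, 9.67% for Oxt and 5.45% for Pmch, while for Hcrt the spread within genotypes (13.4%) was that of counting (13.4%).

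**Figure D4:**
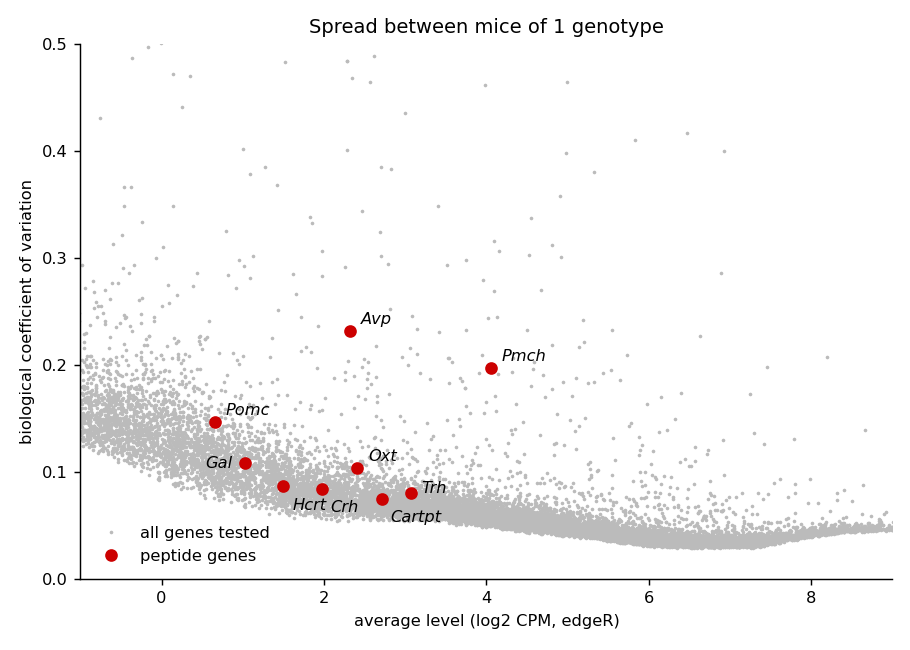
Biological coefficient of variation of each gene between mice of 1 genotype against its average level in log2 CPM, as estimated by edgeR, with all genes tested in grey and the 9 peptide genes in red. The axes end before the most variable and the most and least abundant genes. Avp (0.231) and Pmch (0.197) lie well above the grey band at their level, and Hcrt, Crh, Trh, Cartpt and Gal lie closer to it or within it.

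A single h2 library was low for all 9 tested genes together. In h2 replicate 2, 9 of the 9 tested genes were below their median over 12 libraries, with a median ratio of 0.801 to it, and 4 of them (Avp, Oxt, Cartpt and Pmch) had their lowest value there. The ratio was 0.873 to 1.16 in the other 11 libraries. Of the h2 libraries, only h2 replicate 2 had high Xist (900.3 CPM, beside 0.994 and 0.864 CPM in the others). Other genotypes also had libraries with high Xist. Their ratios were 1.10 in h1 replicate 1, 1.03 and 0.970 in h4 replicates 1 and 3, and 1.01, 1.09 and 0.992 in WT. Within h2 the low values of h2 replicate 2 cannot be told apart from sex. Of all 16493 genes tested, 51.2% were below their own median in this library, with a median ratio of 0.999. Of 15 transcription factors of the developing and adult hypothalamus, 8 were below their own median in it. Lowest there were 2 of the 15, Otp at 1.01 CPM and Sim1 at 0.729 CPM, while 5 were lowest in h2 replicate 1. The median log2 fold change of the 9 genes in h2 over WT was -0.15 without h2 replicate 1, 0.00 without h2 replicate 2 and -0.30 without h2 replicate 3, in place of -0.17 with all 3. The genes below 0 were 7, 4 and 8 in these fits, in place of 7. By contrast h2 replicate 3, the library with Gh counts, held the highest values of Avp and Oxt. Summed over the 10 genes, the level was 51.6 to 54.9 CPM in h1, 36.6 to 57.1 CPM in h2, 48.5 to 54.4 CPM in h4 and 53.4 to 56.7 CPM in WT.

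**Figure D5:**
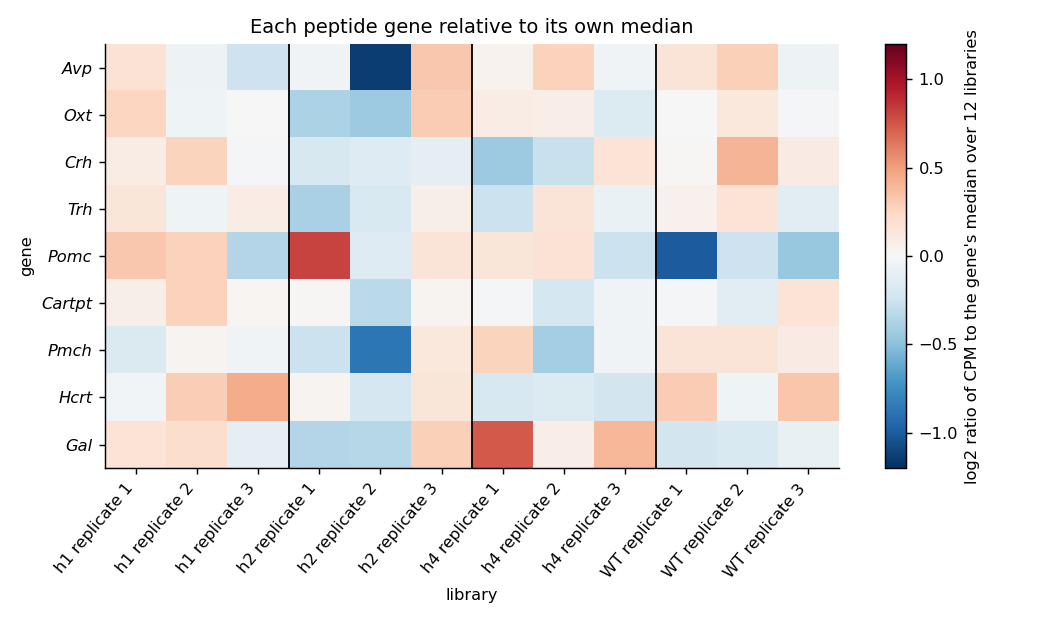
Log2 ratio of each tested gene's CPM to its own median over the 12 libraries, with genes down the page and libraries across in the order h1, h2, h4 and WT. Red is above and blue below the median; the column of h2 replicate 2 is blue for all 9 genes, most deeply for Avp and Pmch.

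No receptor of these peptides was called against WT. Of 16 measured receptor genes, 14 were tested. Against WT, edgeR called 0 of them in h1, h2 and h4, where the shares of all genes were 0.625%, 0.679% and 4.55%. DESeq2 also called 0. At an unadjusted p under 0.05, 0 genes passed in h1, 1 in h2 and 0 in h4, where the shares of all genes were 9.82%, 11.5% and 17.6%. The median log2 fold changes of h1, h2 and h4 were 0.02, -0.05 and -0.03. Crhr1, the main receptor of corticotropin releasing hormone in the brain, averaged 23.2 ± 0.373 CPM in h1, 21.9 ± 2.25 CPM in h2, 22.7 ± 1.12 CPM in h4 and 23.7 ± 0.235 CPM in WT (SD, n = 3). Mchr1, the receptor of melanin concentrating hormone, averaged 13.9 ± 0.706, 12.6 ± 0.432 and 12.6 ± 1.65 CPM in h1, h2 and h4 and 13.1 ± 1.01 CPM in WT.

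Mc4r, the melanocortin receptor through which Pomc products reduce feeding, was called between mutants, and it is named after its values were seen. It averaged 1.50 ± 0.525 CPM in h2 and 3.02 ± 0.629 CPM in h1, beside 2.08 ± 0.298 CPM in h4 and 2.27 ± 0.487 CPM in WT. The h2 level of Mc4r was below that of h1, at -1.01 on the log2 scale (SE 0.23, edgeR adjusted p = 0.0281). It was the 1 call among 14 tested receptor genes in h2 against h1, where edgeR called 0.722% of all genes. DESeq2 also called it (-1.01, DESeq2 adjusted p = 0.0353). Relative to WT the log2 values were 0.43 for h1 (adjusted p = 0.519) and -0.58 for h2 (adjusted p = 0.328). The call between h2 and h1 was lost without h1 replicate 2 (adjusted p = 0.207), h1 replicate 3 (0.0958), h2 replicate 1 (0.135) or h2 replicate 2 (0.204), and with limma on TPM (0.249). The log2 values in these fits were -0.89, -0.96, -0.97, -0.77 and -0.77.

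Of 13 genes that process prohormones or build dense core granules, 2 changed in h4 against WT, where 4.55% of all genes were called, and none was called in h1 or h2. At an unadjusted p under 0.05 h1 gave 0 of the 13, h2 gave 2 and h4 gave 4, where the shares of all genes were 9.82%, 11.5% and 17.6%. DESeq2 called 0 in h1 and h2 and 3 in h4, the third being Vgf, a granule protein gene named after its values were seen (log2 fold change -0.24, DESeq2 adjusted p = 0.00549, edgeR adjusted p = 0.0691). The share of all genes that DESeq2 called in h4 is not given here. Scg5, which encodes the chaperone of prohormone convertase 2, rose to 161.0 ± 5.62 CPM in h4, against 139.9 ± 4.09 CPM in WT, or 0.19 on the log2 scale (SE 0.04, edgeR adjusted p = 0.00385). Cadps2, which encodes a protein that primes dense core granules for release, fell to 130.5 ± 1.81 CPM in h4, against 145.3 ± 4.64 CPM in WT, or -0.16 on the log2 scale (SE 0.03, adjusted p = 0.00429). The other 11 genes of this list did not pass in h4, where its median log2 fold change was 0.00. The call of Scg5 was lost without h4 replicate 1, at 0.17 on the log2 scale (adjusted p = 0.0508), and that of Cadps2 with limma on TPM, at -0.14 (0.132).

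None of 14 tested genes among 24 other peptide genes, 15 among 22 transcription factors and 8 genes of glucocorticoid feedback was called against WT by edgeR or DESeq2. The shares of all genes that edgeR called were 0.625% in h1, 0.679% in h2 and 4.55% in h4. At an unadjusted p under 0.05 the other peptides gave 1, 0 and 1 in h1, h2 and h4, the transcription factors 1, 3 and 1, and the glucocorticoid feedback genes 2, 2 and 1, where the shares of all genes were 9.82%, 11.5% and 17.6%. Penk, which encodes enkephalins and is abundant in striatum, averaged 164.2 ± 4.07 CPM in h1, 159.2 ± 1.27 CPM in h2, 156.9 ± 14.1 CPM in h4 and 154.9 ± 6.14 CPM in WT. Sst, the somatostatin gene of cortical interneurons and hypothalamus, averaged 83.0 ± 4.07 CPM in h1, 79.0 ± 4.82 CPM in h2, 77.7 ± 4.42 CPM in h4 and 79.9 ± 1.77 CPM in WT. Arnt2, a transcription factor needed for magnocellular neurons to form, averaged 287.3 ± 6.15 CPM in h1, 287.4 ± 0.343 CPM in h2, 273.5 ± 3.64 CPM in h4 and 287.9 ± 8.91 CPM in WT.
Pou3f2, which acts with Arnt2, averaged 27.2 ± 0.935 CPM in h1, 29.0 ± 1.54 CPM in h2, 30.9 ± 2.06 CPM in h4 and 32.1 ± 1.42 CPM in WT. The median log2 fold change over WT of the transcription factors was -0.06 in h1, -0.08 in h2 and -0.08 in h4. That of the other peptides was 0.10, -0.01 and 0.00, and that of the glucocorticoid feedback genes was 0.23, -0.37 and 0.05. Glucocorticoids, the hormones that Crh leads to, were not measured here, and this median is not a measure of them.

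Between mutants the glucocorticoid feedback genes were called by DESeq2 and not by edgeR, and those given here are named after their values were seen. In h2 against h1 their median log2 fold change was -0.59, beside 0.00 over all genes, and 6 of 8 had an unadjusted p under 0.05 (9.49% of all genes). DESeq2 called 3 of them, namely Tsc22d3 (-0.79, DESeq2 adjusted p = 1.37e-05, edgeR adjusted p = 0.0549), Sgk1 (-1.29, 0.0233 and 0.191) and Fkbp5 (-0.98, 0.0275 and 0.199), all of which glucocorticoids induce. In h4 against h1, 5 of 8 had an unadjusted p under 0.05 (19.1% of all genes) and DESeq2 called Tsc22d3 (-0.55, DESeq2 adjusted p = 0.00476, edgeR adjusted p = 0.0709). In h4 against h2, 1 of 8 did (16.8%) and DESeq2 called Per1, a clock gene that glucocorticoids also induce (0.74, DESeq2 adjusted p = 0.00145, edgeR adjusted p = 0.0601). The share of all genes that DESeq2 called is not given here, so its counts cannot be set against one.

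For each gene with a mean of at least 1 CPM, the 3 genes with the most similar pattern over the 12 libraries were listed among 13699 genes, as a description of these libraries. Gal was most like Cpt1a (r = 0.935), Egfl8 (0.912) and Gadd45g (0.899), and Pomc most like Rhog (0.928), Cks1b (0.903) and Arhgap30 (0.878). Crh was most like D17Wsu92e (0.928), Erc1 (0.897) and Zmat3 (0.872), and Trh most like Zfp651 (0.912), Arhgap31 (0.897) and Cdk2ap2 (0.885). Cartpt was most like Ppm1b (0.891), AU022754 (0.859) and the orexin receptor gene Hcrtr1 (0.858).
Oxt was most like Tonsl (0.877), E4f1 (0.869) and Sfrp5 (0.862), and Avp most like Hmg20b (0.865), the serotonin transporter gene Slc6a4 (0.853) and Vit (0.840). Pmch was most like St6galnac4 (0.852), Kcna3 (0.846) and Entpd2 (0.846), and Hcrt most like Hsd17b12 (0.848), Wdr82 (0.848) and Otud6b (0.838). The best matches of so many genes over 12 libraries include high values of r by the search alone. No peptide gene had another of the 10 among its closest 3.

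Library totals were 20310860 to 24000838 expected counts for h1, 14513825 to 24694178 for h2, 17667258 to 18388706 for h4 and 20168835 to 21472438 for WT. Rorb averaged 26.3 ± 5.89 CPM in h1, 28.2 ± 4.85 CPM in h2, 8.80 ± 0.262 CPM in h4 and 17.3 ± 1.08 CPM in WT, and it fell in h4 against WT by 0.98 on the log2 scale (edgeR adjusted p = 0.0309). Its log2 fold change over WT was 0.62 in h1 (edgeR adjusted p = 0.242) and 0.70 in h2 (edgeR adjusted p = 0.147). DESeq2 called Rorb in both (DESeq2 adjusted p = 0.0485 in h1 and 0.0132 in h2). Il1r1, the gene targeted in the background strain of h4, averaged 8.34 ± 0.499 CPM in h1, 6.21 ± 0.732 CPM in h2, 13.4 ± 3.11 CPM in h4 and 7.87 ± 0.759 CPM in WT. It rose in h4 against WT by 0.76 on the log2 scale (SE 0.13, edgeR adjusted p = 0.00161), and a count per gene does not show which of its exons were read. Xist was high in h1 replicate 1, h2 replicate 2, h4 replicates 1 and 3 and all 3 WT libraries, and the Y-linked Ddx3y in the others, so sex is unequal among the genotypes. All 12 markers of neurons, glia and vessels were present at 16.9 CPM or more in every library. Among them Mbp of myelin rose in h1 (log2 fold change 0.34, adjusted p = 0.000681) and h2 (0.17, adjusted p = 0.0459), Cldn5 of vessels fell in h1 (-0.57, adjusted p = 0.0115) and Gfap of astrocytes rose in h4 (0.38, adjusted p = 0.00172). Of 8 choroid plexus genes, Kl was higher in h2 (0.37, adjusted p = 0.0107) and h4 (0.25, adjusted p = 0.0463) than in WT. Several of these calls were lost with 1 library left out, mostly with similar log2 values. The edgeR call of Rorb in h4 was lost without any 1 WT or h4 library (log2 -1.02 to -0.93, adjusted p of 0.0505 to 0.119) and that of Cldn5 without WT replicate 1 (-0.55, 0.121). That of Kl in h2 was lost without WT replicate 2 (0.33, 0.0951) or h2 replicate 2 (0.32, 0.0954). Kl in h4 lost its call without any 1 of 9 libraries (0.16 to 0.27, up to 0.339) and Mbp in h2 without any 1 of 8 (0.13 to 0.18, up to 0.226). With Xist as a covariate the adjusted p was 0.0692 for Rorb in h4, 0.114 for Cldn5 and 0.0597 for Mbp in h2. With limma on TPM it was 0.0624 for Il1r1, and 0.0941 for both Mbp and Cldn5 in h1. It was 0.360 for Mbp and 0.287 for Kl in h2, and 0.302 for Kl in h4. The summed level of the choroid plexus genes was 686.1 to 781.7 CPM in h1, 696.8 to 841.9 CPM in h2, 631.5 to 841.5 CPM in h4 and 628.1 to 750.5 CPM in WT. The part of sex and of these markers in the peptide values was not tested beyond the fit with Xist as a covariate, which gave 0 calls among the 9 genes.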

How the data were processed

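Polyadenylated RNA of 12 whole brains, stored in pieces in RNAlater, was extracted with TRIzol, made into TruSeq RNA v2 libraries and read from both ends for 100 bases on an Illumina instrument, per the labels' protocols. The authors deposited 1 table per library with RSEM expected counts, TPM, FPKM and transcript lengths. Bowtie2 2.2.0 and RSEM 1.2.12 are named in the submitters' processing notes, while a genome build or annotation for the tables is not given in the sources used here. RSEM divides a read pair among matching genes, and 77.7% of deposited expected counts above 0 were whole as printed. The deposited FPKM values and lengths entered no test. The deposited TPM values are scaled within each library and were used to rank genes and in 1 alternative.

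Symbols and positions came from GENCODE M21 (GRCm38) by identifier, for 37607 of 38924 genes. Expected counts were rounded and tested with edgeR 4.0.16 in R 4.3.3 by robust quasi-likelihood, with TMM factors of 0.991 to 1.012 and 1 mean per genotype over all 12 libraries. The filter by expression level of edgeR left 16493 genes, and adjusted p are over these. CPM in the text is the count over the library total. As separate mice are stated (3 per genotype), p-values reflect differences between animals. Intervals are 2 SE on each side. Correlations are of log2(CPM + 0.5), with 100000 two-sided permutations. Steps were tested on simulated counts. The 7 comparisons were h1, h2, h4 and their mean, each against WT, and the 3 pairs of mutants. Alternatives were DESeq2 1.42.0, its size factors in edgeR, no filter, only the groups compared, Xist as a covariate, limma 3.58.1 on log2(TPM + 0.5), a replicate block and each library left out.

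The genes and the lists beside them were chosen with earlier results of these data known. All 10 genes were named, with the list members called against WT or otherwise up to 2 of highest CPM, and the 3 genes of most similar pattern (mean of at least 1 CPM, no Gm or Rik name).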

Additional observations from a re-analysis of the deposited data

Results flagged for a closer look

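Gh, the growth hormone gene, which lies outside the peptide genes, was measured at 1.15 CPM (27 counts) in h2 replicate 3 while it was at 0 in every WT library. It was marked as a signal above the level of the control samples. The same library held 2 counts of Prl and the highest values of Avp and Oxt among the 12, at 6.13 and 6.43 CPM. The part of these transcripts in the peptide values was not tested.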

How the results depend on the processing

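No peptide gene was called under any of the 19 alternatives. The smallest adjusted p over the alternatives was 0.0716 (Gal in h4 against WT, without h4 replicate 2), beside 0.128 in the fit of all libraries. With no filter on low counts it was 0.0966, for Pomc in the mean of the mutants, and with DESeq2 0.465, where 38 of 63 adjusted p were missing. Of 675 values of peptide genes recomputed, 20 changed sign. The largest of them with all libraries was -0.32, for Avp in h2 against WT. With Xist as a covariate, log2 fold changes in h1 against WT were -0.030 for Oxt, -0.022 for Trh and -0.13 for Hcrt. With 1 library left out at a time, values in h1 against WT ran from -0.062 to 0.086 for Oxt, -0.14 to 0.066 for Crh, -0.041 to 0.10 for Trh and -0.049 to 0.19 for Hcrt. In h2 against WT they ran from -0.72 to 0.032 for Avp, -0.45 to 0.0050 for Oxt, -0.17 to 0.012 for Cartpt and -0.18 to 0.21 for Gal. In h4 against WT they ran from -0.15 to 0.033 for Avp and -0.093 to 0.032 for Oxt, and for Cartpt in the mean of the mutants from -0.093 to 0.047. The correlation of Avp and Oxt was 0.746 for deviations from genotype means and 0.527 without the 2 farthest libraries, neither passing. It was 0.636 to 0.872 with 1 library left out, and at 0.636 (without h2 replicate 2) it did not pass. That of Crh and Avp was -0.023 to 0.271 and that of Pomc and Agrp -0.410 to 0.045, with 0.160 without the 2 farthest libraries.

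Calls over all genes moved by more than 1.5 times, with fewest for limma on TPM and most with no filter or without WT replicate 3. They ranged from 0 to 236 in h1, 11 to 348 in h2, 152 to 1111 in h4 and 8 to 505 in the mean of the mutants, each against WT, and from 4 to 290 in h2 against h1, 105 to 1067 in h4 against h1 and 118 to 844 in h4 against h2. With the replicate block on the numbers in the titles of h1 and h2, 0 peptide genes and 204 of all genes were called in h2 against h1, beside 119 without it. Same-numbered libraries had deviations correlated at -0.147, -0.112 and 0.028. With 3 libraries per genotype these values cannot show whether the numbers pair the mice. Depth limits Agrp, and to a lesser extent Pomc, Gal and Hcrt.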
